A study of Mus musculus with 8 samples.

Results

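The rows described here are Esp38, Lars2, Arhgap21, Jarid2, Atf2, Tra2a and D130009I18Rik, 7 of the 38920 rows in each deposited expression table. They were chosen by their high summed level over all libraries, so their height and their rank are descriptions and were not tested. The rows carry gene names, but each was set beside the 5S ribosomal RNA rows of the same library and is not read as the activity of its gene. The study compared sorted epithelial cells of the stomach of C57BL/6 mice between 2 diets, with 4 libraries after a high fat diet (HFD 22, 23, 26 and 27) and 4 libraries of control mice (15-17-18, 16, 19 and 20, titled ND). All 8 were made from total RNA of sorted cells after a RiboMinus removal of ribosomal RNA (rRNA), with an Ion Total RNA-Seq kit and no barcodes. Age, sex and the length of feeding are not in the labels, nor is the number of mice behind a library. The 3 numbers in the title of control 15-17-18 could mean pooled mice, but nothing in the labels says so. The p-values below rest on the spread among these libraries, which may be partly technical.

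Ribosomal RNA makes up most of the RNA of a cell, and total RNA libraries remove it with probes before sequencing. What the probes leave behind is sequenced with the rest, and such reads can be placed on other genomic locations that resemble rRNA. The 5S rRNA is made by RNA polymerase III from a cluster of repeated genes, apart from the large precursor of 18S, 5.8S and 28S rRNA that RNA polymerase I makes in the nucleolus. The genes named by the rows have unrelated roles. Esp38 belongs to the exocrine gland secreted peptides, a rodent family known from lacrimal and other exocrine glands and sensed by the vomeronasal organ. Lars2 encodes the mitochondrial leucyl-tRNA synthetase, Arhgap21 a GTPase activating protein, Jarid2 a partner of Polycomb repressive complex 2, Atf2 a leucine zipper transcription factor of the ATF/CREB family and Tra2a a splicing factor. D130009I18Rik is annotated as a long noncoding RNA.

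The transcript of the highest row is given here 5′ to 3′, because Esp38 alone took more of every library than any of the other 6 rows and its letters were among those compared with rRNA. It is the shorter GENCODE M21 transcript (GRCm38), 243 bases long, and spans chr17:39953353-39955244 on the plus strand. Capitals mark its first and last 3 bases, a start and a stop codon.
Esp38: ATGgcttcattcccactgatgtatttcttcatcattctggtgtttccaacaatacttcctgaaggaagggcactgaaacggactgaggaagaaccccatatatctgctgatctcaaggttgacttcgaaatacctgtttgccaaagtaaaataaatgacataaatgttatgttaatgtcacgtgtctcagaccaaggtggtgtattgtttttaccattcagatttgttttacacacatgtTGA

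Of the 25 5S rows, 24 hold 1 identical sequence, so the authors' counting could have divided reads among these copies and single 5S rows are uncertain. Their sum is used below. All annotated transcripts of the 7 genes were compared with 357 annotated rRNA transcripts. These are the GENCODE entries of the classes rRNA and mitochondrial rRNA and the gene Gm42418, which lies at the 18S locus of chromosome 17. None of the 7 genes held a run of 20 bases shared with any of them. Only 81 of 55094 annotated genes (0.147%) did, so this does not set the 7 apart from most other genes. The longest shared run was 12 bases for Esp38, 16 for Lars2, 14 for Arhgap21 and Tra2a, and 15 for Jarid2, Atf2 and D130009I18Rik. Only annotated exons were searched. Introns, the flanks of the genes and the 28S sequence were not used here, so the letters say nothing of those stretches.

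By summed linear value over the 8 libraries, that is the antilog of the deposited log2 values, Esp38 ranked first among all rows with 21.99 M, where M stands for 1000000. Lars2 ranked 5 with 10.3 M. Arhgap21, Jarid2, Atf2, Tra2a and D130009I18Rik followed each other at ranks 9 to 13, with 5.37, 4.60, 4.18, 3.86 and 3.41 M. D130009I18Rik was the lowest row taken, and the next row down was Sspn, a gene of the dystrophin complex, at rank 14 with 3.13 M. The other rows among the 20 highest were of several kinds. Pgc at rank 2, Gkn1 at 16 and Chia1 at 20 are abundant products of gastric glands, and Rn7s1 and Rn7s2 at ranks 6 and 7 are copies of the RNA of the signal recognition particle. NEWGENE1689, NEWGENE2102, NEWGENE172 and the rows 19791 and 101056203 have no gene name in the tables used here. No row matched the symbols Rn45s, Rn18s, Rn28s1 or Rn5-8s, so a large rRNA could be among the rows without a name. Row 19791, at rank 8, held 7.18% of control 15-17-18 and 0.608% to 1.84% of the other libraries. Its identity was not resolved here. The gene rows Cdk8 and Gphn stood at ranks 17 and 19.

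The 7 rows together took a wide range of each library. Their combined share of the summed linear value was 15.5% in HFD 22, 8.68% in HFD 23, 10.9% in HFD 26 and 15.02% in HFD 27, a mean of 12.5 ± 3.29% (SD, n = 4). In the control libraries it was 43.9% in 15-17-18, 8.35% in 16, 25.8% in 19 and 17.6% in 20, a mean of 23.9 ± 15.1% (SD, n = 4). Control 15-17-18 and control 19 held the 2 highest shares and control 16 the lowest, so the controls enclosed the whole range of the HFD libraries. Because every library was scaled to a common total of 36.9 M, the share left to all other rows was 56.1% in control 15-17-18, against 74.2% to 91.7% elsewhere. With control 15-17-18 left out, the control mean was 17.2 ± 8.73% (SD, n = 3).

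**Figure D1:**
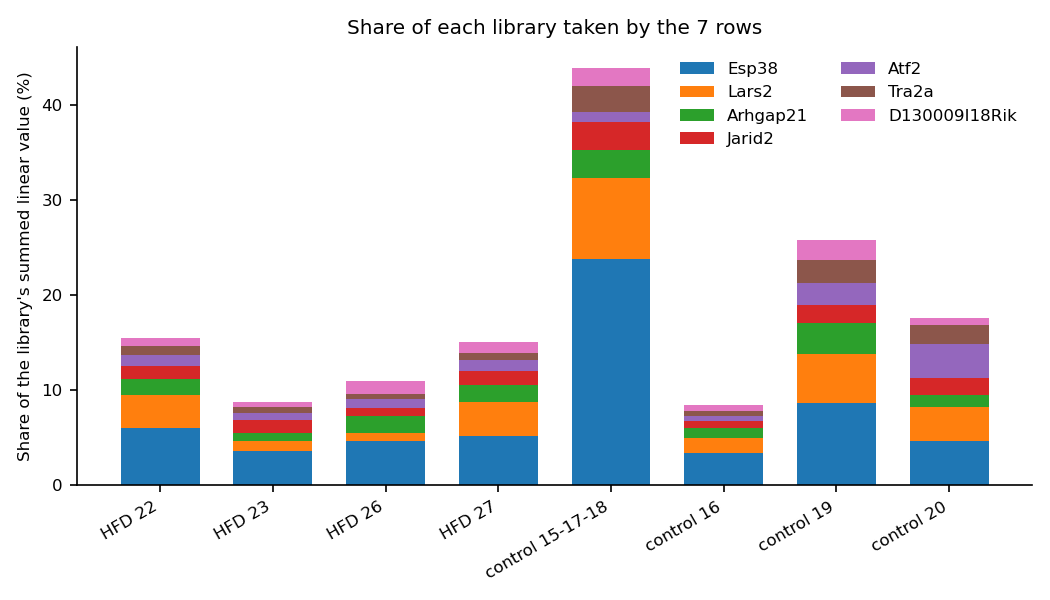
Stacked bars give the percent of each library's summed linear value taken by each of the 7 rows, for the 4 HFD and the 4 control libraries. Control 15-17-18 reaches 43.9% and control 16 8.35%, and Esp38 is the largest segment in every library.

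Esp38 (gene 100126775, chromosome 17, 39950520 to 39955287, GRCm38) was the largest single contributor. Its deposited log2 level was 21.08, 20.32, 20.69 and 20.86 in HFD 22, 23, 26 and 27, and 23.06, 20.24, 21.60 and 20.68 in control 15-17-18, 16, 19 and 20. Control 15-17-18 was the highest and control 16 the lowest of all 8 libraries, and the groups overlapped. As a share of the library, Esp38 ran from 3.55% to 6.03% in HFD and from 3.36% to 23.7% in control. It was the row with the highest value in controls 15-17-18 and 19 and ranked 2 in the other 6 libraries. Within the 7 rows, its part ranged from 26.02% in control 20 to 54.1% in control 15-17-18, so the mix of the rows was not constant.

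Lars2 (gene 102436, chromosome 9, 123366927 to 123462675) had log2 levels of 20.29, 18.61, 18.36 and 20.30 in HFD 22, 23, 26 and 27. In control 15-17-18, 16, 19 and 20 its levels were 21.59, 19.18, 20.87 and 20.36. HFD 23 and HFD 26 were the lowest, and 3 of the 4 controls exceeded every HFD library, with control 16 inside the HFD range. Its share ran 9.40-fold from the lowest library to the highest, the widest range of the 7 rows.

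Arhgap21 (gene 71435, chromosome 2, 20847919 to 20968691) stood at 19.23, 18.28, 19.28 and 19.39 in HFD 22, 23, 26 and 27, and at 20.06, 18.45, 20.18 and 18.86 in control 15-17-18, 16, 19 and 20. Controls 15-17-18 and 19 were above all other libraries. HFD 23 was the lowest library, and controls 16 and 20 also lay under the other 3 HFD libraries. D130009I18Rik (gene 320249, chromosome 14, 104639144 to 104966783), the noncoding RNA row, had 18.29, 17.50, 18.89 and 18.74 in HFD and 19.47, 17.78, 19.58 and 17.95 in control, in the same library order. Its libraries fell in nearly the same order as those of Arhgap21, again with controls 15-17-18 and 19 at the top and HFD 23 at the bottom.

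Jarid2 (gene 16468, chromosome 13, 44730774 to 44921643) had log2 levels of 18.90, 18.94, 18.28 and 19.07 in HFD 22, 23, 26 and 27 and of 20.05, 18.09, 19.45 and 19.33 in control 15-17-18, 16, 19 and 20. Tra2a (gene 101214, chromosome 6, 49243921 to 49264248) had 18.43, 17.78, 17.54 and 18.06 in HFD and 19.93, 17.39, 19.79 and 19.49 in control, in that order. For both rows 3 controls were above every HFD library, while control 16 was the lowest of all. Atf2 (gene 11909, chromosome 2, 73816509 to 73892677) differed from the others in where its peak lay. Its levels were 18.71, 18.004, 18.45 and 18.57 in HFD and 18.51, 17.71, 19.66 and 20.34 in control 15-17-18, 16, 19 and 20. Control 20 was highest, and control 15-17-18, the peak of Esp38, Lars2, Jarid2 and Tra2a, lay within the HFD range.

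**Figure D2:**
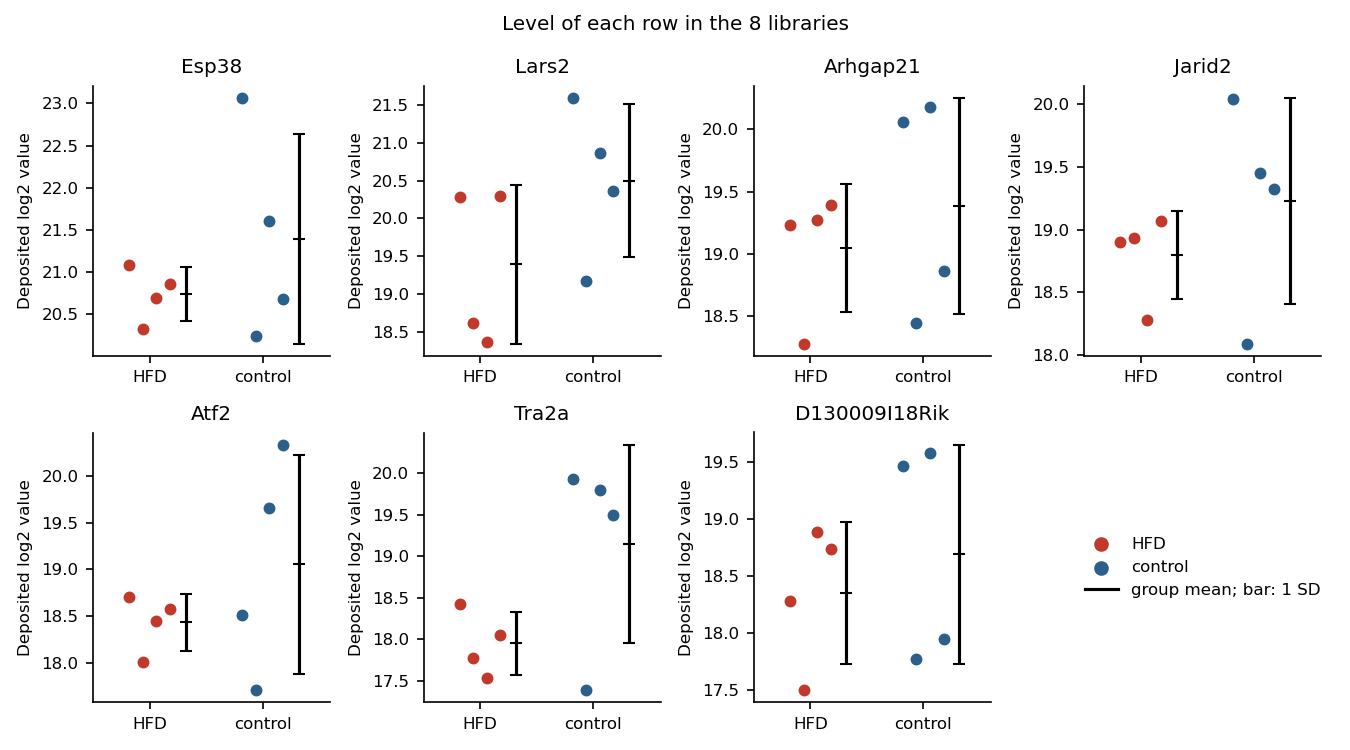
Each panel gives the deposited log2 level of 1 row, with 1 point per library (HFD red, control blue, points in the library order of the text) and the group mean with a bar of 1 SD. In all 7 panels the HFD and control points overlap, and the lowest control library is number 16.

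Relative to Esp38 the other rows were not in fixed proportion. The linear value of Lars2 was 0.576, 0.306, 0.199 and 0.679 of that of Esp38 in HFD 22, 23, 26 and 27, and 0.361, 0.479, 0.603 and 0.797 in control 15-17-18, 16, 19 and 20, a 4.01-fold range. The ratio of Atf2 to Esp38 was 0.193, 0.201, 0.212 and 0.205 in the HFD libraries and 0.0428, 0.173, 0.260 and 0.785 in the controls, in the same order. Atf2 thus kept a narrow ratio in the 4 HFD libraries but spanned 18.4-fold over all 8. The ratios of Arhgap21, Jarid2, Tra2a and D130009I18Rik to Esp38 spanned 3.01-fold, 3.16-fold, 3.87-fold and 3.47-fold. In control 15-17-18 the ratio was at its lowest for Arhgap21, Jarid2, Atf2 and D130009I18Rik.

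Between the 21 pairs of rows, Pearson's r of the log2 levels over the 8 libraries ran from 0.18 to 0.98 with a median of 0.72. By exact two-sided permutation of the library orders, 9 pairs passed after Benjamini-Hochberg adjustment over the 21 pairs. By Spearman's coefficient, 6 did. The lowest r among the 9 was 0.76, and of all pairs among the 10897 rows that reached a linear value of 30 in every library, 85.8% had an r at least as high, with a median of 0.94. On the deposited scale the count of 9 is therefore not particular to the 7 rows. In median-ratio scaling, the divisor of a library is the median over rows of the row's value relative to its own mean. After it, 3.76% of all pairs had such an r, and passing pairs of the 7 rows were not counted on that scale. The closest pair was Arhgap21 and D130009I18Rik (r = 0.98, Spearman 0.98, exact permutation p = 7.4e-05, adjusted p = 0.0016, n = 8), and their r was 0.93 without controls 15-17-18 and 19. Jarid2 and Tra2a had r = 0.90 (Spearman 0.93, exact permutation p = 0.00042, adjusted p = 0.0044) and 0.82 without those 2 libraries. Atf2 and Tra2a did not pass (r = 0.72, Spearman 0.71, exact permutation p = 0.045, adjusted p = 0.086), but had r = 0.95 without the 2 libraries. Over the 6 remaining libraries the 21 pairs ran from -0.10 to 0.95 with a median of 0.45. Each library was scaled to the common total, so the levels of the rows are not independent of each other on this scale.

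Of the 25 5S rows, 24 had a value above 0 in at least 1 library, and 23 were highest in control 15-17-18. In parts per 1000000 of the library's summed linear value (ppm), the summed 5S level was 2.97, 2.44, 2.95 and 6.41 in HFD 22, 23, 26 and 27. In control 15-17-18, 16, 19 and 20 it was 182, 2.69, 13.1 and 5.10 ppm. Control 15-17-18 stood apart, 3.80 log2 units above the next library, while the other 7 lay within 2.41. The rows named after genes held far more than the 5S rows did in every library, so the 5S level marks how libraries differ and does not add up to the rows' share.

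Of the 7 rows, 6 had a correlation with the 5S level that passed over the 8 libraries, and none of these passed without control 15-17-18. The plan was to give no r over all libraries if the 5S levels fell into separate clusters. Control 15-17-18 lay apart from the rest, so the values over the 8 libraries are descriptions, to be read beside those without it. Esp38 had r = 0.96 with log2 of the 5S sum (Spearman 0.86, exact two-sided permutation p = 0.0033, adjusted over the 7 correlations 0.0077, n = 8). Jarid2 had r = 0.82 (Spearman 0.83, exact permutation p = 0.0024) and Lars2 r = 0.79 (Spearman 0.90, exact permutation p = 0.0030), both with an adjusted p of 0.0077. Tra2a had r = 0.75 (Spearman 0.86, exact permutation p = 0.0048, adjusted 0.0084), Arhgap21 r = 0.74 (Spearman 0.88, p = 0.014, adjusted 0.020) and D130009I18Rik r = 0.71 (Spearman 0.81, p = 0.019, adjusted 0.022). Atf2 did not pass (r = 0.16, Spearman 0.62, exact permutation p = 0.70). Adjusted exact permutation p-values of the Spearman coefficient for the 6 rows were 0.019 to 0.025.

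When the 2 libraries farthest from the median 5S level were left out, controls 15-17-18 and 19, no row passed. Over those 6 libraries r was 0.46 for Esp38, 0.72 for Lars2, 0.56 for Arhgap21, 0.61 for Jarid2, 0.61 for Atf2, 0.56 for Tra2a and 0.43 for D130009I18Rik, with adjusted exact permutation p of 0.36 to 0.38. With control 15-17-18 alone left out, r was 0.67 to 0.82 over the 7 rows, and adjusted exact permutation p ran from 0.055 for 5 of the rows to 0.10 for Atf2. Atf2 had r = 0.67 in that case, up from 0.16 with the library included. With control 19 alone left out, all 6 rows still passed by Pearson's r, each with an adjusted exact permutation p of 0.031. By Spearman's coefficient none of the 6 passed in that subset (adjusted exact permutation p = 0.077 for each). By Pearson's r, Lars2, Arhgap21 and D130009I18Rik did not pass without HFD 23 (adjusted exact permutation p = 0.062 for each). Nor did Arhgap21 and D130009I18Rik without control 16 (0.077 for both). Every r stayed above 0 in these subsets, and for Lars2 it moved from 0.79 to 0.72 between 8 and 6 libraries.

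The same measure was taken over a larger set of rows, which share the common total and include the 7. Among the same 10897 rows, the median r with the 5S level was -0.96, and only 1.57% of rows had an r above 0. An r of at least 0.71, the value of D130009I18Rik, was reached by 32 rows, or 0.294%. These 32 include D130009I18Rik itself and those of the 7 with a higher r. With median-ratio scaling, the median r of the 10897 rows was -0.036 and 48.1% were above 0. On that scale r was 0.79 to 0.99 for the 7 rows, with Atf2 at 0.79 (exact permutation p = 0.0024, adjusted 0.0024), but the row and the 5S level then share the divisor, which was smallest in control 15-17-18.

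**Figure D3:**
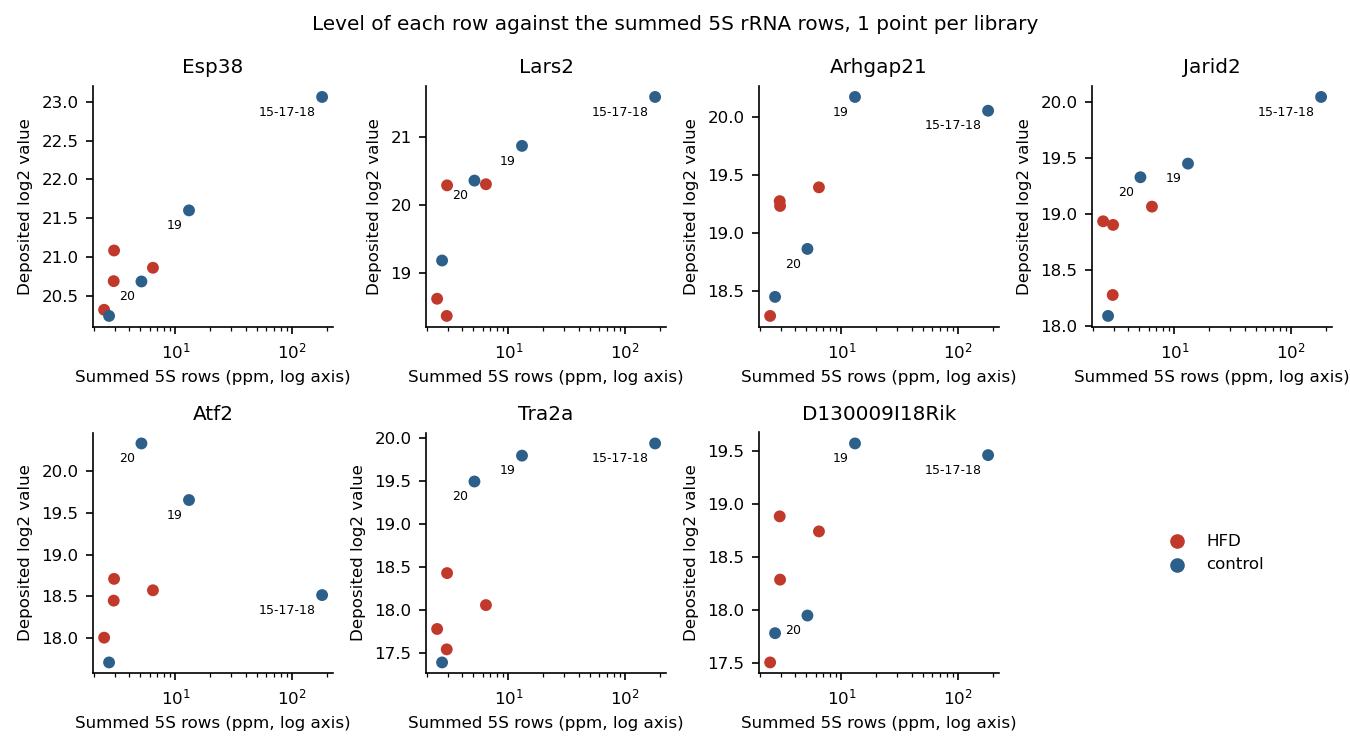
Each panel sets the deposited log2 level of 1 row against the summed 5S rows in ppm of the library total on a log axis, with 1 point per library and controls 15-17-18, 19 and 20 labelled. Control 15-17-18, at 182 ppm, is far to the right of the other 7 libraries, and in the Atf2 panel it lies below controls 19 and 20.

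The rows whose log2 levels were most like those of the 7, by Pearson's r over the 8 libraries among the 10897 rows, came from unrelated genes. For Esp38 they were Cd209a (r = 0.97), Dnah7b (0.96), Rsph3b (0.94), Rsph3a (0.93) and Cdk8 (0.91), and for Lars2 Zfp185 (0.98), Gphn (0.97), Camk1d (0.97), Kpna1 (0.97) and Btbd16 (0.96). After D130009I18Rik, Arhgap21 was closest to Marchf3 (0.97), Cdk8 (0.92), Cntnap5b (0.92) and Sspn (0.92). D130009I18Rik, after Arhgap21, was closest to Marchf3 (0.95), Cntnap5b (0.89), Gm7248 (0.85) and Vwa3a (0.85). None of these belongs to the gene families of the rows. Without controls 15-17-18 and 19, r with Esp38 was 0.76 for Cd209a, 0.80 for Dnah7b, 0.53 for Rsph3b, 0.44 for Rsph3a and 0.92 for Cdk8. For the rows listed with Lars2 it was then 0.91 to 0.98, with Arhgap21 0.76 to 0.97 and with D130009I18Rik 0.53 to 0.95.

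Jarid2 was closest to Rimbp3 (0.95), Btbd16 (0.93), Olfr1274 (0.92), Camk1d (0.90) and Tra2a (0.90), and Tra2a to rows that include Tlcd4 (0.96), Mphosph8 (0.94), Cd44 (0.94) and Zfp945 (0.93). Atf2 had its closest rows at lower values, with Rad51b (0.86), Itga9 (0.86), Gm18604 (0.85), Cyyr1 (0.84) and Il1rapl1 (0.83). The sum of the 7 rows had among its closest rows Cdk8 (0.98), Gphn (0.96), Btbd16 (0.95) and Rimbp3 (0.95). Several rows recur in these lists. Cdk8 and Gphn, which recur, and Sspn, which is listed once, are themselves among the 20 highest rows. The median r of all 10897 rows was -0.95 with Esp38, -0.73 with Lars2 and -0.13 with Atf2. These are descriptions over 8 libraries that share their totals.

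Beside the other genes of their own families, the rows stood at a different scale. Levels were divided by exon length (GENCODE M21) and are given as the median over the libraries in ppm of the total per kilobase. Esp38 had 129973 ppm per kilobase over 375 bases of exon, while Esp15, the next of 13 other Esp genes with a row, had 3.75. Of those 13, Esp3 and Esp6 were listed at 0 in all 8 libraries, and the median of the 13 was 0. Lars2 had 3146 ppm per kilobase. The next of 16 other mitochondrial aminoacyl-tRNA synthetases was Vars2, the valyl enzyme, with 30.2, and their median was 3.51.

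Arhgap21 had 1829 ppm per kilobase against 13.6 for Arhgap1, the next of 33 other Arhgap genes. Jarid2 had 1466 against 14.8 for the histone demethylase Kdm5c, the next of 14 Polycomb and JARID family genes. Atf2 had 1266 against 54.5 for Atf4, a stress response factor and the next of 21 ATF, CREB and JUN genes. Tra2a had 1220 against 19.3 for Srsf2, the next of 12 SR and TRA2 splicing factors. Each of these 6 rows was the highest of its list in 8 of 8 libraries. As the rows were chosen for their level, no test was made.

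**Figure D4:**
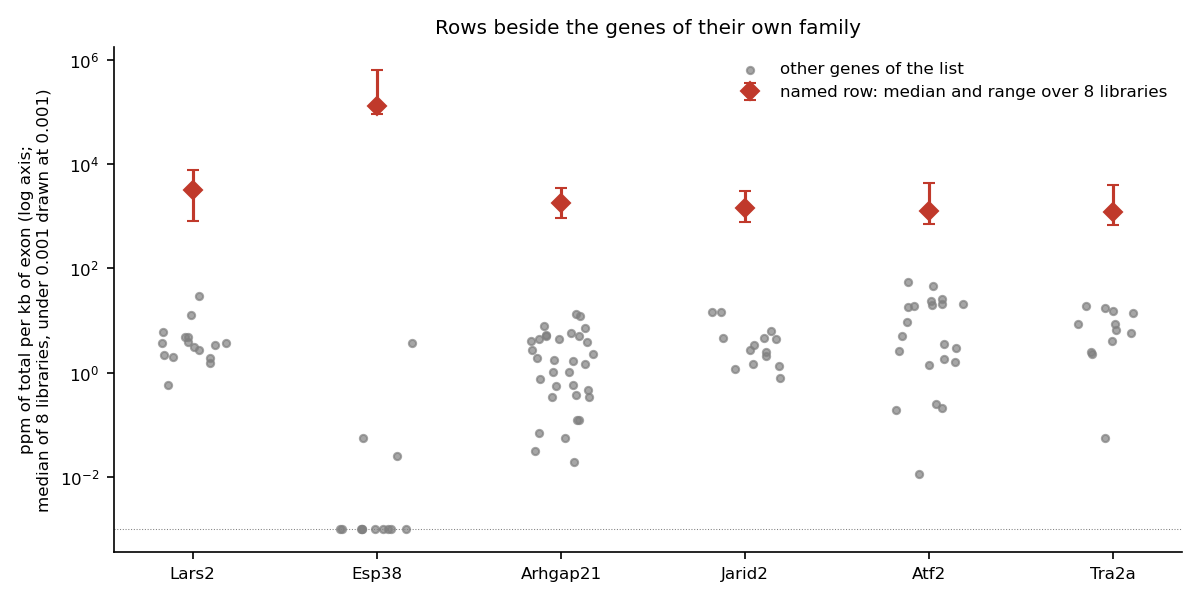
Red diamonds give the median over 8 libraries, with bars from the lowest to the highest library, of the ppm of total per kilobase of exon (log axis) for the 6 rows whose genes have a family list, and grey points the medians of the other genes of the list. Esp38 lies at 129973 above Esp15 at 3.75, and the other 5 rows lie between 1220 and 3146 above list members of at most 54.5.

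The genes next to the rows on the chromosome that had values above 0 were lower than the row beside them. AY036118, 52135 bases before Esp38, Scp2-ps2 beside Lars2 and Gm18011 beside Tra2a were listed at 0 in all 8 libraries. So were Rnu1a1, Rnu6 and Rnu7, genes of small nuclear RNAs that every cell uses, so a 0 in these tables, as for Esp3 and Esp6, may be a row that was not counted. The pseudogene Tgif2-ps2, on the other side of Esp38, had log2 levels of 0 to 3.45. Limd1, 15986 bases after Lars2, had 8.71 to 11.90. Gm13375, 183 bases from Arhgap21, had 2.28 to 5.92, and Etl4 on its other side 10.25 to 12.90. Dtnbp1, 436 bases after Jarid2, had 6.07 to 9.71, and Atp5g3, 15770 bases after Atf2, 9.68 to 13.23. In control 15-17-18, where Esp38, Lars2 and Jarid2 peaked, Limd1, Etl4, Gm13375, Dtnbp1, Atp5g3, Igf2bp3 beside Tra2a, and Obi1 and Gm5671 beside D130009I18Rik were at their lowest. This is not particular to the neighbours, since most rows were low in that library. Its median-ratio divisor was 0.176, against 0.677 to 1.37 in the other libraries. Chn1, the other neighbour of Atf2, was lowest in control 20. The row 1700029N11Rik, before Jarid2, had 0 to 4.02 with its lowest level in HFD 23.

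Between HFD and control, none of the 7 rows passed the test for a difference. The comparison was made with limma on log2(value + 1) over 27401 rows, those that reached a linear value of 1 in 4 or more libraries, with Benjamini-Hochberg adjustment over all of them. Of the 7 rows, 0 passed an adjusted p of 0.05, where 16 of all rows (0.0584%) did. The groups overlapped in 7 of 7 rows, where 7.93% of all rows had groups that did not overlap. The smallest unadjusted p among the 7 was 0.129, for Tra2a. In bulk samples, fewer cells of a type and less RNA per cell cannot be told apart.

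The estimates were all below 0 with intervals that included 0. The limma SE was 0.79 to 0.81 for all the rows although their SDs differed, so it reflects mainly a spread shared across rows. It does not measure the spread of each row by itself. Without the robust option the SE was 1.36 to 1.89, and again no row passed. The mean of Esp38 was 20.74 ± 0.32 with HFD and 21.40 ± 1.25 with control diet (SD, 4 libraries each), a difference of -0.66 ± 0.81 (SE, limma adjusted p = 0.59, 95% interval -2.25 to 0.93). Lars2, at 19.39 ± 1.05 and 20.50 ± 1.02, had a difference of -1.11 ± 0.80 (limma adjusted p = 0.50, interval -2.68 to 0.46). The largest estimate was that of Tra2a, at 17.95 ± 0.38 and 19.15 ± 1.19, with -1.20 ± 0.79 (limma adjusted p = 0.50, interval -2.75 to 0.35). These intervals span more than 3 log2 units, so a difference of several-fold in either row would not have been detectable.

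For Atf2 the difference was -0.62 ± 0.79 (limma adjusted p = 0.60), for Jarid2 -0.43 ± 0.79 (0.71), and for Arhgap21 and D130009I18Rik -0.34 with SE of 0.80 and 0.79 (both 0.77). The SD in control was larger than in HFD for 6 of the 7 rows, with Lars2 about equal in both groups. Without controls 15-17-18 and 19, the estimates turned above 0 for Esp38 (0.28), Arhgap21 (0.39), Jarid2 (0.086) and D130009I18Rik (0.49), and none of the 7 passed (limma adjusted p of 0.90, 0.87, 0.98 and 0.85 for those 4). In that subset 0 of 27401 rows passed in limma (0%), and 1761 had an unadjusted p under 0.05. The 2 libraries were left out after seeing the data, and they held the 2 highest control levels of these 4 rows. Leaving them out could therefore only raise the 4 estimates, and the change of sign is a description.

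The scale of the comparison moved with the same libraries. As deposited, the median of all 27401 tested rows was 0.90 higher in HFD on the log2 scale, and between 1.47% (Tra2a) and 6.02% (D130009I18Rik) of rows had a lower estimate than one of the 7. After median-ratio scaling the median row was 0.12 higher. The 7 estimates were then -1.20 to -2.06, and 0 of 7 passed, with limma adjusted p of 0.53 to 0.68, where 3 of all rows (0.0109%) passed and 7.84% had groups that did not overlap. Every interval ran from below -3 to above 0. The scaling divides all rows of a library by 1 factor, so it moved the 7 estimates and the median row down by similar steps.

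**Figure D5:**
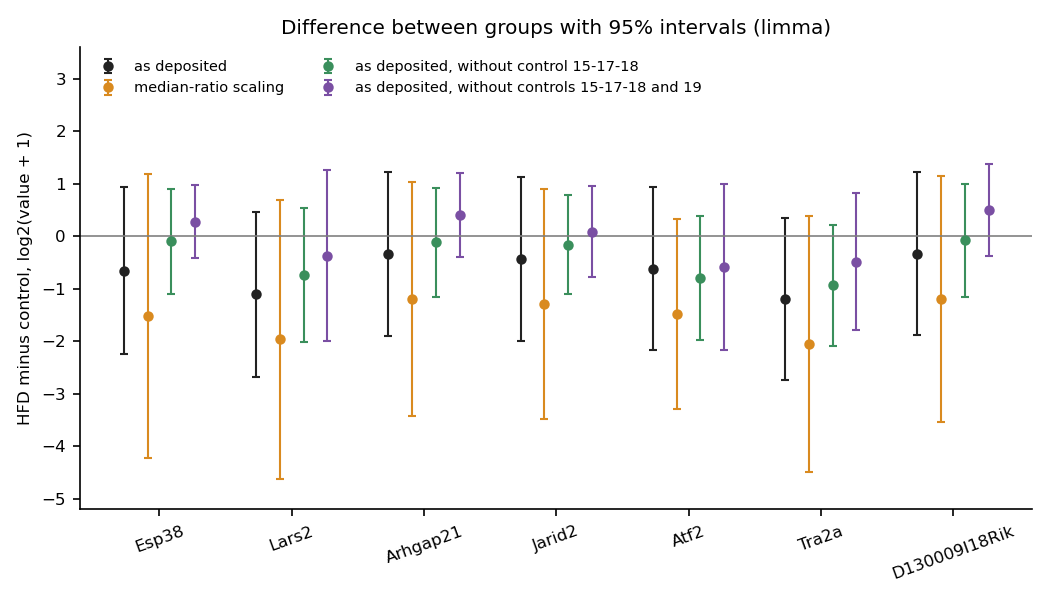
Points give the difference of HFD minus control in log2(value + 1) for each row, with 95% intervals from limma, as deposited, after median-ratio scaling, without control 15-17-18 and without controls 15-17-18 and 19. Every interval includes 0, and the estimates of Esp38, Arhgap21, Jarid2 and D130009I18Rik lie above 0 without the 2 controls.

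Among the families, no gene passed in either direction, which holds for the 17 mitochondrial aminoacyl-tRNA synthetases, 34 Arhgap genes, 15 Polycomb and JARID genes, 22 ATF, CREB and JUN genes, 13 SR and TRA2 factors and 4 Esp genes tested. An unadjusted p under 0.05 was found for 2 of 34 Arhgap genes, 1 of 22 ATF, CREB and JUN genes and no gene of the other 4 lists, where 9.61% of all tested rows had one. The list median differences were 1.04, 0.77, 0.71, 0.70, 0.87 and 0.051, beside 0.90 for all tested rows. In the synthetase, Arhgap, Polycomb and splicing lists the only negative estimate was that of Lars2, Arhgap21, Jarid2 and Tra2a respectively. After median-ratio scaling this no longer held, as 4, 20, 9 and 6 genes of those lists had estimates below 0. The medians of the synthetase, Arhgap, Polycomb, ATF, CREB and JUN, splicing and Esp lists were then 0.19, -0.085, -0.15, -0.16, 0.011 and -0.66, beside 0.12 for all tested rows.

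Genes that make and process rRNA, a list of 33 with Polr1a, Ubtf and Gtf3a, were examined the same way. None passed the test, and 3 of 33 had an unadjusted p under 0.05, where 9.61% of all tested rows did. The list median was 0.91 as deposited and 0.057 after median-ratio scaling, near the 0.90 and 0.12 of all tested rows. Ubtf, the activator of the rRNA genes, had levels of 11.80 to 12.09 in HFD. In control 15-17-18, 16, 19 and 20 it had 9.15, 12.02, 11.30 and 11.74, so it was lowest where the 5S rows were highest. This is not particular to Ubtf, as only 1.57% of the 10897 rows had an r above 0 with the 5S level.

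Control 15-17-18 also stood apart in its gastric genes and in other structured RNA. Most rows were low in that library, whose median-ratio divisor was 0.176, against 0.677 to 1.37 elsewhere. The levels below are not corrected for this, so a low marker sum there is not by itself a loss of a cell type. The summed level of 4 chief cell markers was 5848 ppm in control 15-17-18, while controls 16, 19 and 20 had 46500 to 68074 and the HFD libraries 79040 to 104624. Parietal cell markers (5 genes) had 680 ppm in that library and 4466 to 9643 in the other 7. Rn7s1 was at 14.52 in control 15-17-18, against 18.92 to 20.51 elsewhere. Markers of leukocytes, 6 genes, stayed between 1.49 and 7.16 ppm, and 3 genes of vomeronasal and lacrimal tissue, where Esp genes are known, between 2.61 and 16.4 ppm, both lowest in control 15-17-18. In some lists, the chief cell list among them, the summed levels of the groups did not overlap. Of single tested rows, 7.93% had no overlap. As deposited, the median tested row was 0.90 higher in HFD. On that scale Des, of the fibroblast and smooth muscle list, and Krt4 and Krt13, of the forestomach list, passed limma. Their differences were 3.54, 3.43 and 3.24, where 16 of all rows (0.0584%) passed. After median-ratio scaling no gene of these lists passed. The 5 pancreatic acinar markers summed to 4052 to 6945 ppm in HFD and 247 to 2569 in control, 6 markers of fibroblasts and smooth muscle to 121 to 227 and 18.8 to 113, and 4 of forestomach squamous epithelium to 57.5 to 148 and 0.490 to 53.2. Their part in the comparison of the 7 rows was not tested. Estimated depth was 31.4 to 46.0 M reads in HFD, and 53.3, 32.4, 16.4 and 63.2 M in control 15-17-18, 16, 19 and 20, where control 19 was the shallowest. Whether residual rRNA, depth or the makeup of control 15-17-18 sets the level of the 7 rows was not tested.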

How the data were processed

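RNA was measured in 4 HFD and 4 control libraries, grouped by sample title. Each deposited table has 38920 rows and 1 column of normalized values, which was read as the authors' log2 values floored at 0, because their antilogs sum to 36.9 M (M stands for 1000000) in every library. A deposited log2 value of 0 was taken as 0. Per the submitters' processing notes the genome build was mm10 and bedtools 2.17.0 was used. The sources used here name no aligner, counting or normalization method. Whole reads were not recovered, since 25.1% to 35.0% of low values were whole multiples (within 0.01) of the estimated worth of 1 read. That worth was taken as the commonest low value, divided by 2 in HFD 26, HFD 27 and controls 15-17-18 and 20. The division raises the depth estimates of these libraries, so the size of the depth differences is uncertain. Depth is therefore an estimate, and no counting interval is given.

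The planned test for values without counts was used, limma 3.58.1 in R 4.3.3 (trend and robust options, group as the only term) on log2(value + 1), with a threshold of 0.05. Such fold changes understate low rows. Correlations used exact permutations of the libraries (Python 3.11.15, numpy 2.4.6, pandas 2.3.3). Median-ratio scaling used 11115 rows. Scripts were tested on simulated data. The alternatives were other scalings, pseudocounts, filters, variance models, 5S measures, denominators and sets of libraries. No replicate number is shared between groups, so nothing was paired. Coordinates are from RefSeq (GRCm38.p6), where 32891 rows matched a symbol, and sequences from GENCODE M21.

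The 7 rows, the gene lists and the tests were chosen with earlier results of these data known. Named were the 7 rows, the other rows among the 20 highest, the summed 5S rows, the 5 rows most like each of the 7, the highest genes of each list, and chromosomal neighbours. Some items that this rule names are not reported here.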

Additional observations from a re-analysis of the deposited data

Results flagged for a closer look

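In 18 groups of 4 libraries examined (the 7 rows, their combined share and the 5S level, in each diet group), 1 held a library far from the rest. The Arhgap21 level of HFD 23, 18.28 on the deposited log2 scale, lay below those of HFD 22, 26 and 27 by a gap of 0.855 of the group's whole range, above Dixon's 95% critical value for 4 samples. Chance gives about 1 such group in 20.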

How the results depend on the processing

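In the refits, no estimate of the 7 rows between HFD and control passed the test, 114 estimates kept their sign and 12 changed it. With quantile normalization Arhgap21 was 0.23, Jarid2 0.19, Atf2 0.0013 and D130009I18Rik 0.22. Without controls 15-17-18 and 19, chosen after seeing the data, Esp38 was 0.28, Arhgap21 0.39, Jarid2 0.086 and D130009I18Rik 0.49, and with median-ratio scaling as well 0.30, 0.42, 0.11 and 0.51. The correlation with 5S fell below the threshold without these 2 libraries (Esp38 0.46, Lars2 0.72, Arhgap21 0.56, Jarid2 0.61, Tra2a 0.56, D130009I18Rik 0.43) and, for D130009I18Rik, with the single 5S row of highest total (0.63). Atf2 passed with median-ratio scaling (0.79). Leaving out 1 library at a time, r was 0.80 to 0.99 for Esp38, 0.77 to 0.85 for Lars2, 0.72 to 0.82 for Arhgap21, 0.72 to 0.86 for Jarid2, 0.73 to 0.84 for Tra2a and 0.69 to 0.79 for D130009I18Rik. The adjusted p was above 0.05 for these 6 without control 15-17-18, for Lars2, Arhgap21 and D130009I18Rik without HFD 23, and for Arhgap21 and D130009I18Rik without control 16. The difference of the combined share, control minus HFD, was 11.4 percentage points and 4.72 to 16.6 with 1 library left out, lowest without control 15-17-18. Of all rows, 16 passed as deposited, 3 with median-ratio scaling or quantile normalization, 55 with totals without the 7 rows, 29 with a pseudocount of 10, 9 without a filter, 25 with a filter at 10, 35 without the robust option, and 1 to 103 with 1 library left out. Without controls 15-17-18 and 19 limma called 0 on both scales (1761 and 2966 rows at an unadjusted p under 0.05). The cause of these changes was not tested. Leaving out control 19, the shallowest library by the depth estimate (16.4 M reads), ended none of the 6 correlations by Pearson's r. By Spearman's coefficient it ended all 6 (adjusted exact permutation p = 0.077 for each).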
